A study of Mus musculus with 4 samples.

Results

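The genes described here encode the machinery that fuses and divides mitochondria, together with a pair of receptors that tether mitochondria to the autophagosome. They were the 10 genes Mfn1, Mfn2, Opa1, Dnm1l, Fis1, Mff, Mief1, Mief2, Fundc1 and Bcl2l13, found by matching these symbols to the array's probe annotation. Each was read by 1 probe set, so they made up 10 of 22206 probe sets and 10 of 19505 named genes. The cells were Neuro-2a, a mouse neuroblastoma line of strain A origin whose cells serve as a model of neurons. Deltamethrin, a pyrethroid insecticide that slows the closing of voltage-gated sodium channels, was given at 30 µM for 24 h to 1 group, and the other group received the vehicle, 0.1% DMSO, for the same time. Each group had 2 Affymetrix Clariom S Mouse arrays, and the comparison asks which of these transcripts deltamethrin exposure moved. All 4 arrays came from 1 cell line in culture, so they are no sample of animals.

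Mitochondria join and split continually. Fusion joins the outer membranes through the mitofusins and the inner membranes through OPA1, and lets partners share proteins and DNA. Fission is done by DRP1, a GTPase recruited from the cytosol by receptors on the outer membrane, and it yields fragments small enough to be moved along axons or enclosed by an autophagosome. In mitophagy, receptors such as FUNDC1 and BCL2L13 bind LC3 proteins on the growing autophagosome and so mark the organelle for degradation. Several of these proteins are regulated by phosphorylation, cleavage or ubiquitination, which an array of transcripts does not read.

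None of the 10 transcripts passed the test, and the intervals of the fit used here bounded the change of each. In limma over all probe sets, with a Benjamini-Hochberg adjusted p below 0.05 as the threshold, 0 members rose and 0 fell, against 0.432% of all probe sets that were called. The smallest difference called on any probe set was 1.215 in size on the log2 scale, or 2.32-fold. The absence of a call, here and in the lists below, therefore does not show that a smaller change was absent. A separate threshold on the unadjusted p, also 0.05, was met by 0 of the 10 members, beside 3035 of all 22206 probe sets. Estimates of the log2 difference, deltamethrin minus vehicle, ran from -0.30 for Fis1 to 0.27 for Bcl2l13, with 3 above 0, 6 below 0 and 1 at 0. Their median was -0.11, beside -0.02 over all probe sets, and the median size without sign was 0.16, beside 0.20 over all probe sets. The 95% interval lay inside a 2-fold change in both directions for 10 of 10 members, as it did for 84.5% of all probe sets. The lowest bound was -0.79 (Fis1) and the highest 0.73 (Bcl2l13), which correspond to 0.580 times and 1.65 times the vehicle level. Each interval has its own 95% level, is not widened for the number of genes read, and covers the spread between these arrays alone. Without moderation, limma's sharing of variance between probe sets, the interval lay inside 2-fold for 8 of 10 members, with a lowest bound of -1.26.

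Promoter windows of 3 members are shown because each holds a motif that was searched for, of NRF1, NRF2 or the E-box factors. The windows are RefSeq sequences of build GRCm38.p6, from 250 bases before to 50 after an annotated start, and all 10 members matched, with 15 windows between them. On that build Opa1 (chr16:29579281-29663127) and Dnm1l (chr16:16312228-16359038) lie on the same chromosome, and the other members lie on 8 further chromosomes, Fis1 at chr5:136953275-136966234 and Fundc1 at chrX:17519967-17572329 among them. Capitals mark the match, 5′ to 3′ on the gene's strand. The Opa1 window (chr16:29579084-29579383, plus strand) holds the core of the palindrome bound by NRF1, a factor of nuclear genes for mitochondria, from 59 bases before the start. The Bcl2l13 window (chr6:120835980-120836279, plus strand) holds a pair of antioxidant response element cores, the element bound by NRF2, from 113 and 92 bases before the start. The Mief2 window (chr11:60728148-60728447, plus strand) holds an E-box core, from 24 bases before the start.
Opa1: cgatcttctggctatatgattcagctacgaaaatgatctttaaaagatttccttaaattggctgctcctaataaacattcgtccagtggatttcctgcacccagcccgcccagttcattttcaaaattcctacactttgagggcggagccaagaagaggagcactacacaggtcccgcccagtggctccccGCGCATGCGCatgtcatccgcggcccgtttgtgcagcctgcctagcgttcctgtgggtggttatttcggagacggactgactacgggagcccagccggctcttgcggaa
Bcl2l13: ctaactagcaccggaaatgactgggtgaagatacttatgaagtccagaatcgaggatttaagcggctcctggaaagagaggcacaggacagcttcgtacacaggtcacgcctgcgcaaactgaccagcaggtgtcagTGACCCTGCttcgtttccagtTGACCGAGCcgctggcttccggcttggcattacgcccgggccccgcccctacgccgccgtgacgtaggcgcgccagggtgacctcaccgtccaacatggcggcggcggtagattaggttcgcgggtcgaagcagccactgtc
Mief2: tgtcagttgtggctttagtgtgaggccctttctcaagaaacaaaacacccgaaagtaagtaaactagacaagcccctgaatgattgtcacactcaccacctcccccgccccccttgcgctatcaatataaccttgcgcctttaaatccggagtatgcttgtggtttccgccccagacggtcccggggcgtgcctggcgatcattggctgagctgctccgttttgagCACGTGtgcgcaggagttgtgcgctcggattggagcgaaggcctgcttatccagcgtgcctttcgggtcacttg

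The motif search covered both strands and spelled out the NRF1 core as GCGCATGCG, whose forward and reverse matches overlap in Opa1. It was found in 1 of 10 members and in 1.95% of the 27025 genes with a window. The antioxidant response element core TGACNNNGC was found in 1 of 10 members and in 14.0% of genes. The E-box core CACGTG was found in 1 of 10 members and in 8.09% of genes, and the hypoxia element core ACGTG, which overlaps the E-box, in Mfn2 and Mief2 and in 21.8% of genes. The longer palindrome TCACGTGA bound by TFEB, the ATF4 composite element TGATGNAA and the ERR half-site core AAGGTCA were in 0 of 10 members, and in 1.12%, 4.51% and 5.38% of genes. With 10 genes these shares are descriptions of the windows, and a match is no evidence that a factor bound there. The member windows had a median GC content of 59.3%, beside 52.7% over all 32851 windows.

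**Figure D1:**
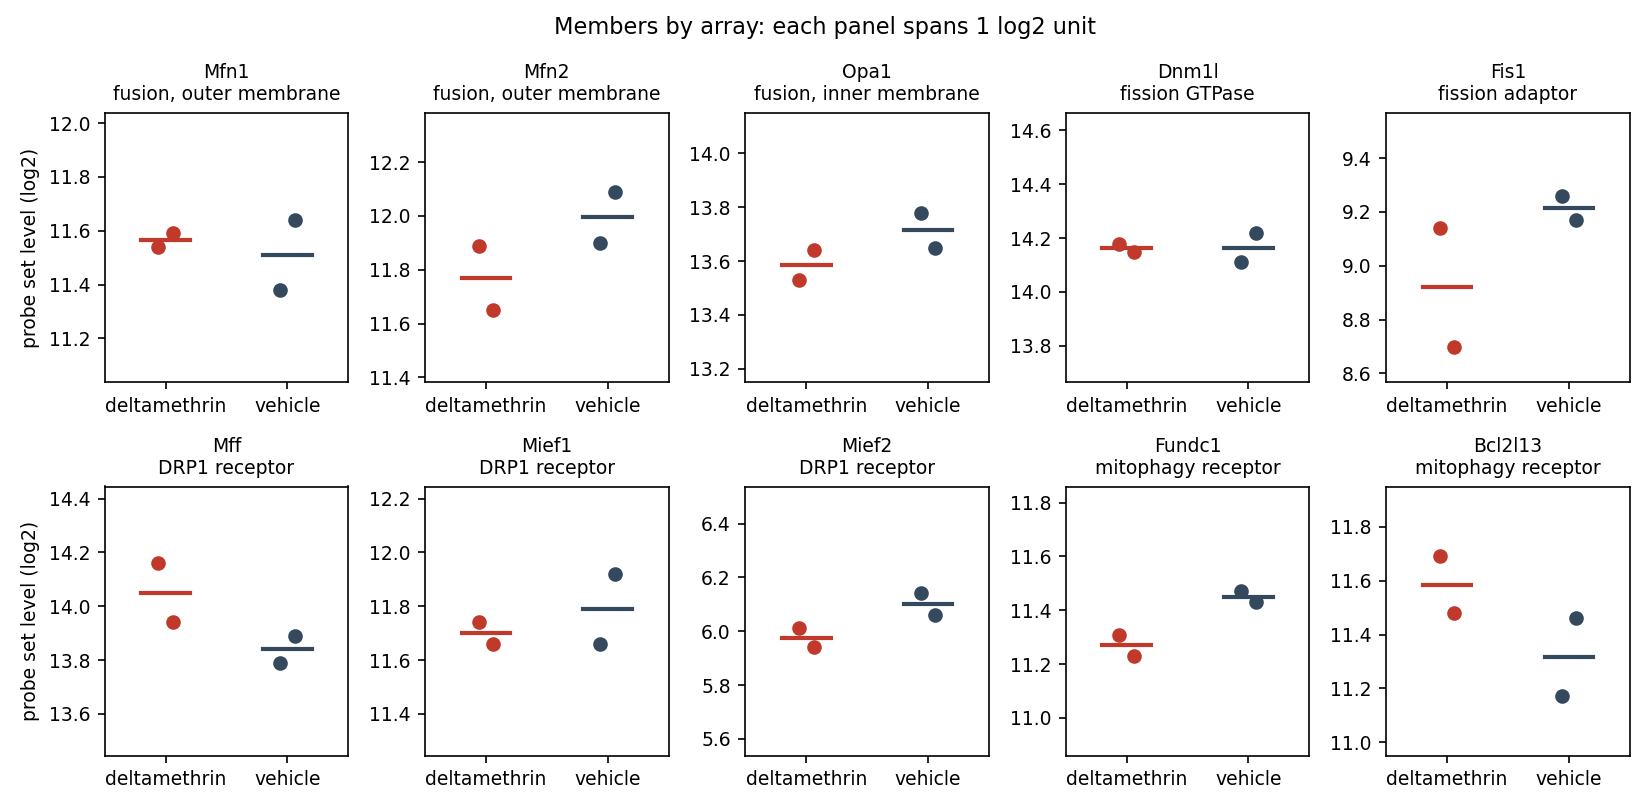
Log2 level of each member's probe set in the 2 deltamethrin arrays (left of each panel) and the 2 vehicle arrays (right). Points are arrays, bars are group means, and each panel spans 1 log2 unit around the midpoint of its means. The Fis1 panel shows the widest gap between deltamethrin arrays, 9.14 and 8.70, while the group means of Dnm1l coincide.

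Among the fusion GTPases, the estimates ran from -0.23 to 0.06. Mfn2, the mitofusin that also tethers mitochondria to the endoplasmic reticulum, read 11.89 and 11.65 in deltamethrin-treated cells, against 11.90 and 12.09 in vehicle-treated cells, on the log2 scale. Both deltamethrin arrays were below both vehicle arrays, by as little as 0.01 between the nearest pair. Means were 11.77 ± 0.17 with deltamethrin and 12.00 ± 0.13 with vehicle (SD, n = 2 each), a log2 difference of -0.23 ± 0.18 (SE; limma adjusted p = 0.648). The interval ran from -0.66 to 0.21.

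Mfn1, the mitofusin with the stronger activity in tethering neighbouring outer membranes, read 11.54 and 11.59 with deltamethrin, against 11.38 and 11.64 with vehicle. The groups overlapped, since the vehicle arrays enclosed both deltamethrin arrays. The difference was 0.06 ± 0.18 (adjusted p = 0.929), and it changed sign, to -0.08, without vehicle replicate 1. Opa1, the inner-membrane GTPase that also shapes the cristae and whose loss causes an inherited optic atrophy in humans, read 13.53 and 13.64 with deltamethrin, against 13.78 and 13.65 with vehicle. The groups were again 0.01 apart at their nearest arrays, with deltamethrin lower, and the difference was -0.13 ± 0.17 (adjusted p = 0.795). Long OPA1 is cut into short forms by proteases under stress, and a probe set for the gene does not tell these forms, or the splice forms that precede them, apart.

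The fission GTPase Dnm1l, which encodes DRP1, showed no difference in means. It read 14.18 and 14.15 in deltamethrin-treated cells, against 14.11 and 14.22 in vehicle-treated cells. Both deltamethrin arrays fell between the vehicle arrays, and the means were 14.17 ± 0.02 and 14.17 ± 0.08 (SD, n = 2 each). The interval of the difference ran from -0.40 to 0.40, so a change of up to 1.32 times in either direction lies within it.

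The outer-membrane proteins that act with DRP1 had estimates in both directions. Fis1, an adaptor with a small part in mammalian fission and a larger one in the clearing of stressed mitochondria, had the smallest p of the members. It read 9.14 and 8.70 with deltamethrin, against 9.26 and 9.17 with vehicle. Both deltamethrin arrays were lower than both vehicle arrays, and they lay 0.44 apart, more than the difference of means. That difference was -0.30 ± 0.20 (SE; unadjusted p = 0.195, adjusted p = 0.586). Leaving out deltamethrin replicate 2 brought it to -0.08 and leaving out deltamethrin replicate 1 to -0.52, so the size of the estimate rested on 1 array.

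Mff, the main receptor that brings DRP1 to mitochondria and peroxisomes, read 14.16 and 13.94 with deltamethrin, against 13.79 and 13.89 with vehicle. Its deltamethrin arrays were both above its vehicle arrays, by 0.05 at the nearest, while the deltamethrin arrays differed from each other by 0.22. The difference was 0.21 ± 0.17 (adjusted p = 0.657), with an interval from -0.21 to 0.63. Fis1 and Mff thus had estimates of opposite sign, and neither was distinguishable from 0.

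Mief1 and Mief2 encode MiD51 and MiD49, paralogous receptors that hold DRP1 at the outer membrane independently of MFF. Mief1 read 11.74 and 11.66 with deltamethrin, against 11.66 and 11.92 with vehicle. Its groups overlapped, the difference was -0.09 ± 0.18 (adjusted p = 0.876), and it changed sign, to 0.04, without vehicle replicate 2. Mief2 read 6.01 and 5.94 with deltamethrin, against 6.14 and 6.06 with vehicle, which put both deltamethrin arrays below both vehicle arrays by 0.05 at the nearest. The difference was -0.13 ± 0.16 (adjusted p = 0.798). Mief2 is the member whose probe set lay near the median of all probe sets, 5.60, where signal cannot be told from background in a table without detection calls.

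Fundc1 and Bcl2l13, the mitophagy receptors, had estimates of opposite sign as well. FUNDC1 acts in the mitophagy that hypoxia induces, and BCL2L13 is regarded as a mammalian counterpart of yeast Atg32. Fundc1 read 11.31 and 11.23 with deltamethrin, against 11.47 and 11.43 with vehicle. Its groups did not overlap, and its arrays agreed closely, with a gap of 0.08 between the deltamethrin arrays and of 0.04 between the vehicle arrays. The difference was -0.18 ± 0.16 (adjusted p = 0.691).

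Bcl2l13 read 11.69 and 11.48 with deltamethrin, against 11.17 and 11.46 with vehicle. Both deltamethrin arrays were higher than both vehicle arrays, by 0.02 at the nearest pair, and the vehicle arrays lay 0.29 apart. Its means were 11.59 ± 0.15 with deltamethrin and 11.32 ± 0.21 with vehicle (SD, n = 2 each). The difference was 0.27 ± 0.19 (adjusted p = 0.590), the highest of the members, with an interval from -0.19 to 0.73.

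The members' arrays did not overlap between groups for 7 of 10 genes, of which 2 were higher and 5 lower with deltamethrin, beside 43.9% of all probe sets. In 7 of 10 members the gap between arrays of at least 1 group was larger than the difference of the group means. An exact two-sided permutation test of 2 arrays against 2 gave p = 0.333 for each of the 7 genes without overlap, which is the smallest it can give. Deltamethrin replicate 1 read above replicate 2 in 8 of 10 members, and vehicle replicate 1 above vehicle replicate 2 in 4 of 10. Over all probe sets the difference between arrays had an SD of 0.37 for the deltamethrin pair and 0.33 for the vehicle pair. In RNA from a whole culture, fewer cells expressing a gene and less of its RNA per cell cannot be told apart.

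**Figure D2:**
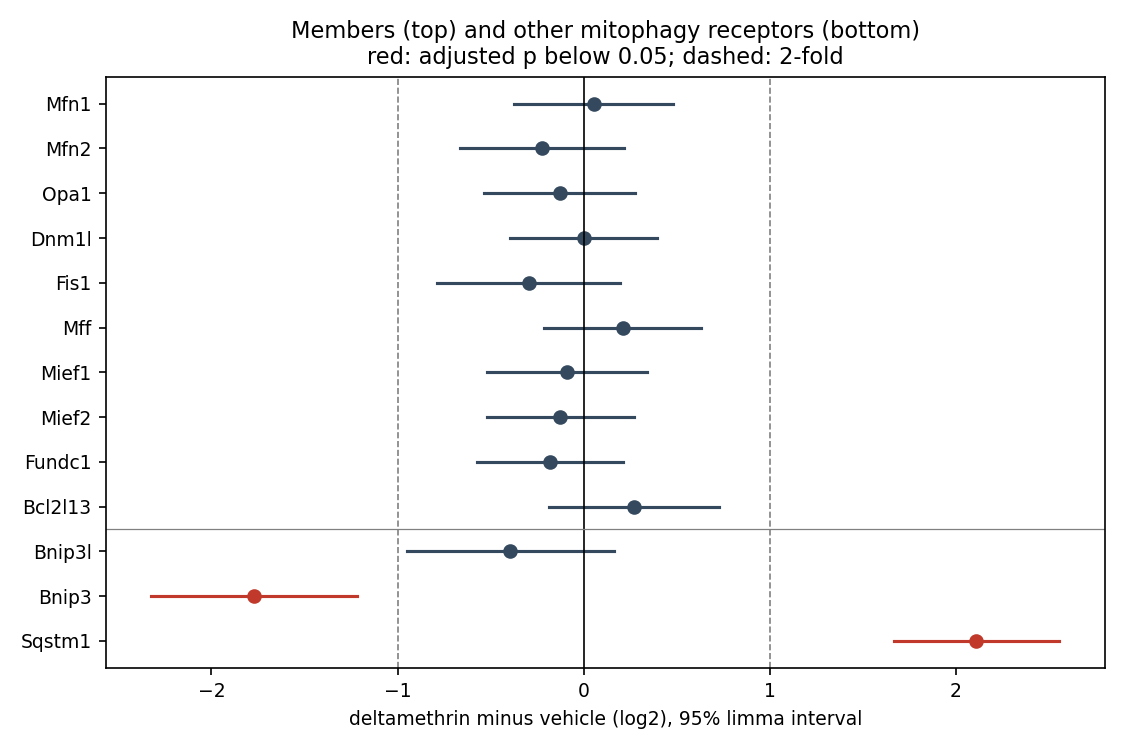
Log2 difference (deltamethrin minus vehicle) of the 10 members, with Bnip3l, Bnip3 and Sqstm1 below the line. Points are limma estimates from 2 arrays per group and lines their 95% intervals. Dashed lines mark a 2-fold change, and red marks an adjusted p below 0.05. All 10 member intervals cross 0 and stay between -0.79 and 0.73, while those of Bnip3 and Sqstm1 lie beyond the dashed lines.

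In other genes of mitophagy, 2 transcripts passed the test. This list held other receptors of mitophagy and genes of its ubiquitin-dependent arm, of which 17 were analysed here. Of the 17, 1 rose, 1 fell and 15 did not pass, beside 0.356% of all probe sets that rose and 0.0766% that fell, and the median was -0.06. The list was chosen with earlier results of these data known, so its count of calls cannot show an excess over those shares. Bnip3, a hypoxia-inducible mitophagy receptor, read 9.40 and 8.83 with deltamethrin, against 10.95 and 10.82 with vehicle, so its groups lay more than 1 log2 unit apart. It fell by 1.77 ± 0.23 on the log2 scale (adjusted p = 0.0464).

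Sqstm1, which encodes the ubiquitin-binding cargo adaptor p62, read 15.95 and 16.18 with deltamethrin, against 13.84 and 14.07 with vehicle. It rose by 2.11 ± 0.18 (adjusted p = 0.0189). Both calls were lost with any 1 array left out, with the replicate number as a block and without moderation of the variance, settings under each of which 0 of all 22206 probe sets passed and 1631 to 3221 had an unadjusted p below 0.05. The estimates there ran from -2.06 to -1.49 for Bnip3 and from 2.00 to 2.23 for Sqstm1. The call of Bnip3 was also lost after quantile normalization, at -1.79. Bnip3l, the paralogue of Bnip3 known for clearing mitochondria from maturing red cells, read 11.51 and 11.03 with deltamethrin, against 11.84 and 11.49 with vehicle. Its groups overlapped, and the estimate of -0.40 ± 0.23 did not pass (adjusted p = 0.516). The intervals of Fundc1 (-0.57 to 0.21) and Bcl2l13 (-0.19 to 0.73) did not reach the estimate of Bnip3 or that of Sqstm1, although the differences between genes were not themselves tested.

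**Figure D3:**
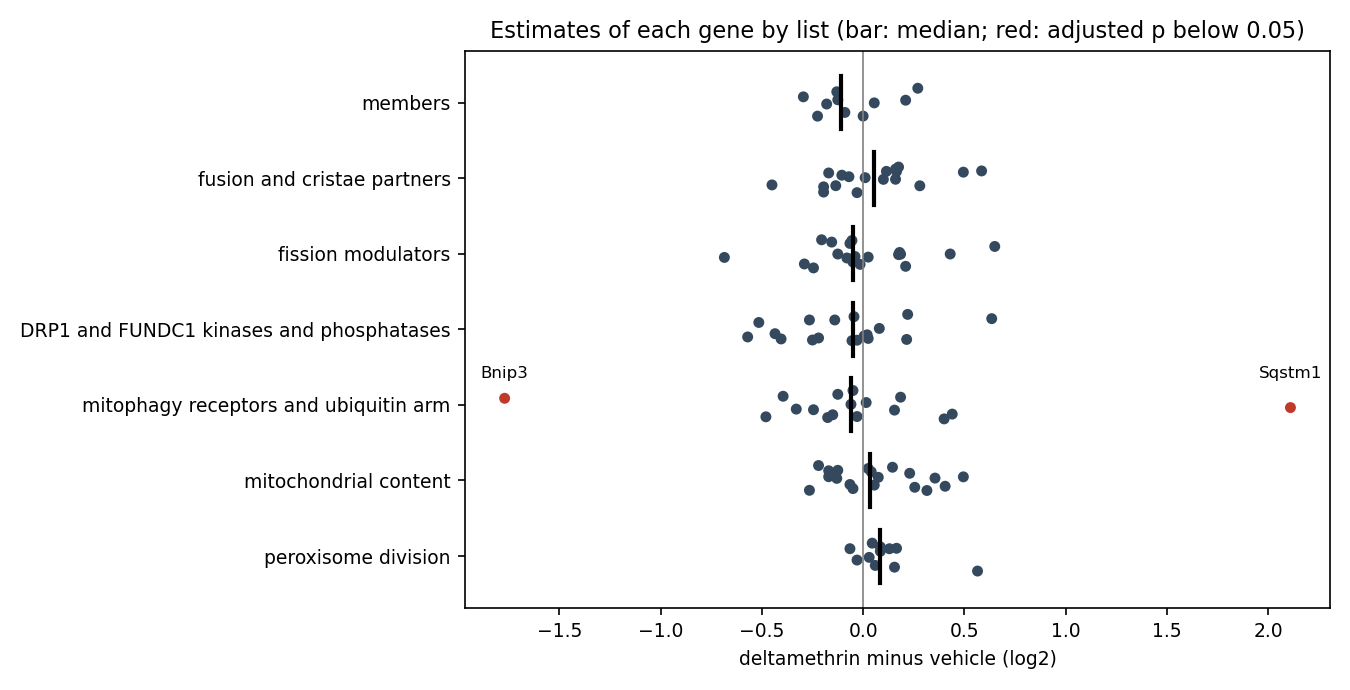
Log2 differences (deltamethrin minus vehicle, limma, 2 arrays per group) of the members and of 6 lists of partner genes. Each point is a gene, offset at random in height, black bars are list medians, and red marks an adjusted p below 0.05. Every list median lies between -0.11 and 0.09, and the 2 called genes stand apart from the rest of their list.

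Genes that work with the fusion GTPases also held no call. Over all 22206 probe sets 0.432% were called, and 10309 had higher and 11744 lower estimates. At that share 0 calls is the likeliest count for a list of 20 genes or fewer. The absence of calls in this and the following lists is therefore no result about their genes. Of 20 OPA1-processing proteases, cristae proteins and outer-membrane fusion partners, 18 were measured, 0 rose and 0 fell, 10 had higher and 8 lower estimates, and the median was 0.06. The smallest p values belonged to Chchd6, a subunit of the MICOS complex at cristae junctions, with 8.48 and 8.57 under deltamethrin against 7.94 and 7.94 under vehicle, and to Parl, the rhomboid protease of the inner membrane. Chchd6 was at 0.59 ± 0.16 (adjusted p = 0.215). Parl read 15.39 and 15.30 with deltamethrin, against 14.84 and 14.86 with vehicle, an estimate of 0.50 ± 0.16 (adjusted p = 0.274). Parl passed with a mean-variance trend, a variance model that lets the expected spread depend on level.

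The list of fission modulators other than the receptors held 20 genes, among them genes of mitochondrial transport such as Trak1. Of the 19 measured, 0 passed, beside 0.432% of all probe sets. Estimates were higher for 7 and lower for 12, and the median was -0.05. Trak1, an adaptor that links mitochondria to motor proteins, read 9.07 and 8.82 with deltamethrin, against 8.29 and 8.30 with vehicle, an estimate of 0.65 ± 0.18 (adjusted p = 0.204). Mtfr2, a fission regulator, read 7.87 and 7.96 with deltamethrin, against 8.67 and 8.53 with vehicle, an estimate of -0.69 ± 0.17 (adjusted p = 0.181). Their groups did not overlap, which held for 11 of the 19 genes, beside 43.9% of all probe sets. It also held for 6026 of the 11335 probe sets with a group mean above the median of all probe sets, as 18 of the 19 had.

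Kinases and phosphatases that act on DRP1, MFF or FUNDC1 held 0 calls among 18 measured of 20, beside 0.432% of all probe sets. Of the 18, 7 had higher and 11 lower estimates, and the median was -0.05. Cdk1, the mitotic kinase that phosphorylates DRP1 as cells divide, read 12.74 and 12.85 with deltamethrin, against 13.26 and 13.47 with vehicle. Its estimate of -0.57 ± 0.17 did not pass (adjusted p = 0.248) but did with a mean-variance trend. Cdk5, the kinase of postmitotic neurons, read 11.33 and 11.03 with deltamethrin, against 10.58 and 10.51 with vehicle, an estimate of 0.64 ± 0.18 (adjusted p = 0.225).

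Genes often used to gauge mitochondrial content showed no call either, beside 0.432% of all probe sets that were called. All 20 outer-membrane, import, matrix and mitochondrial DNA maintenance genes were measured, 11 had higher and 9 lower estimates, 0 passed, and the median was 0.03. The import motor subunit Timm44 was at 0.41 ± 0.17 (adjusted p = 0.360) and the matrix chaperone Hspa9 at 0.50 ± 0.23 (adjusted p = 0.414). Peroxisomes divide with the same DRP1, FIS1 and MFF. Of 11 measured peroxisome genes of 12 listed, 0 passed, with 9 higher and 2 lower estimates and a median of 0.09. Over all probe sets 10309 estimates were higher and 11744 lower, and the direction of this list was not tested. Pex16, needed to assemble the peroxisomal membrane, was at 0.57 ± 0.19 (adjusted p = 0.281), and Pex19, the cytosolic receptor of peroxisomal membrane proteins, at 0.17 ± 0.16 (adjusted p = 0.718).

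The array pattern most like that of Fis1 was sought among all named probe sets, as the smallest Euclidean distance between values centred on the vehicle mean over the 4 arrays. The nearest were Cdc26, an anaphase-promoting complex subunit, at a distance of 0.02, Ddr1, a collagen receptor kinase, at 0.03, and Scara3, a scavenger receptor gene, at 0.03. Their differences were -0.30, -0.30 and -0.31, none of them called, and all 3 had their lowest value on deltamethrin replicate 2, as Fis1 did. These likenesses follow from choosing the nearest patterns, and a link between these genes and Fis1 was not tested. Scara3 lay below the median of all probe sets.

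The cells carried the markers of their label. All 11 measured markers of sympathetic neuroblasts and neuroblastoma (of 14 listed) had a group mean above the median of all probe sets, with list means of 11.86 and 11.70 in the deltamethrin arrays, against 12.12 and 12.14 in the vehicle arrays. A group mean above that level was also held by 11335 of all 22206 probe sets. The median difference of the 11 markers was -0.27 and 0 were called. Th and Gap43 had higher estimates, 0.90 and 0.245. The other measured markers of this list had lower ones, down to -1.255 for Dbh and -1.14 for Isl1 (limma adjusted p = 0.0740 for Isl1). Of the markers of other cell types, 0 of 6 for astrocytes, 0 of 4 for oligodendrocytes and Schwann cells, 1 of 5 for microglia and macrophages and 0 of 5 for fibroblasts lay above that median. The array medians ran from 5.61 to 5.63. The labels do not state whether the replicate arrays are of separate cultures, so the spread behind every p-value here may be no more than technical. A batch that followed the groups could not be told apart from them.

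**Figure D4:**
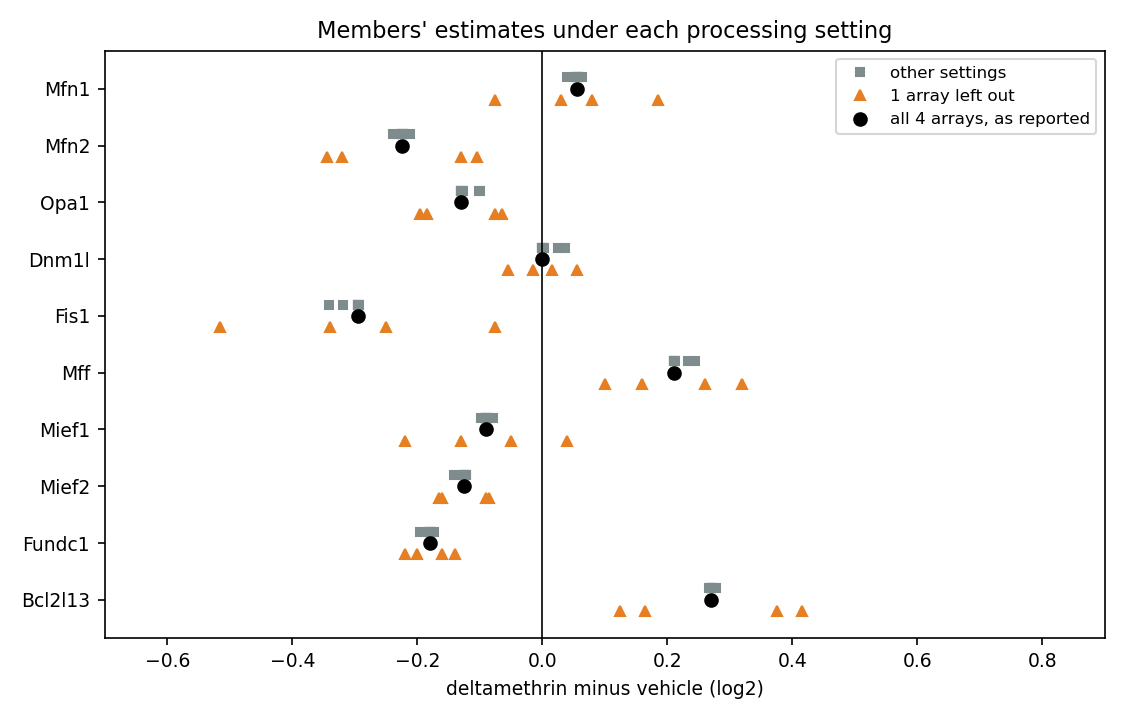
Estimates of the log2 difference (deltamethrin minus vehicle) for each member under the reported fit (black), under other normalizations, filters and variance models (grey squares) and with 1 array left out (orange triangles). Triangles spread more than squares for each member, and those of Mfn1, Dnm1l and Mief1 fall on both sides of 0.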

How the data were processed

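Total RNA from Neuro-2a cells was hybridised to 4 arrays, 2 per group, with groups and replicate numbers taken from the sample titles. The deposited values are log2 levels, 1 per probe set and array, which the authors made, per the submitters' processing notes, with Transcriptome Analysis Console and RMA (background correction, alignment of the arrays' distributions, probe set summary), in versions not given in the sources used here. That the scale is log2 was inferred from the use of RMA and from the range of the values, 1.92 to 18.75. The variant of RMA is not given. Alignment of distributions would hide a shift shared by most transcripts.

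Of 22206 probe sets, 19572 had 1 symbol, 0 had several and 2634 were unnamed here. Symbols were matched by Entrez ID to RefSeq genes of GRCm38.p6. Deltamethrin minus vehicle was fitted with limma 3.58.1 (R 4.3.3; lmFit, eBayes, no trend, no block) on all probe sets, with two-sided p-values adjusted by Benjamini-Hochberg. The fit had 2 residual and 4.43 prior degrees of freedom. For a gene with several probe sets, that of the highest mean was used. The array number limits the precision: the median SE was 0.19. The code was tested on simulated data.

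The members and lists were chosen with earlier results of these data known. Named were all members, each list's called genes or, with no call, its 2 of smallest p, and Bnip3, Bnip3l and Cdk1. Alternatives were a replicate block, a filter at the 40th percentile of mean level, 3 normalizations, a mean-variance trend, no moderation and leaving out each array. A planned comparison of protein sequences was not run, since no protein table was used here.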

Additional observations from a re-analysis of the deposited data

How the results depend on the processing

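Under all 11 alternatives 0 of the 10 members were called, and the smallest adjusted p of any member was 0.444. Estimates of Mfn2, Opa1, Fis1, Mff, Mief2, Fundc1 and Bcl2l13 kept their sign throughout, with ranges of, for example, -0.52 to -0.08 (Fis1) and 0.13 to 0.42 (Bcl2l13). With 1 array left out, Mfn1 ranged from -0.075 (without vehicle replicate 1) to 0.19, Mief1 from -0.22 to 0.04 (without vehicle replicate 2) and Dnm1l, at 0 with all arrays, from -0.06 to 0.06. Intervals lay within a 2-fold change for 10 of 10 members in 7 alternatives. They did so for 8 without moderation (lowest bound -1.26), for 9 without deltamethrin replicate 1, for 9 without vehicle replicate 1 and for 8 without vehicle replicate 2. Without moderation the intervals of Opa1, Dnm1l, Mief2 and Fundc1 were narrower than reported and those of the other members wider, that of Fis1 the widest.

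The count of 96 called probe sets was 312 with dim probe sets left out, 806 with a mean-variance trend (500 rose, 306 fell), 0 without moderation (2293 at an unadjusted p below 0.05), 0 with the replicate block (3221 unadjusted) and 0 to 0 with 1 array left out (1631 to 2779 unadjusted). In the mitophagy list the 2 calls became 1 after quantile normalization (Sqstm1), 0 without moderation, 0 with the replicate block and 0 to 0 with 1 array left out, with 2 to 4 genes at an unadjusted p below 0.05. The trend gave 1 call each in the fusion partner list (Parl) and the kinase list (Cdk1). Same-numbered arrays deviated together with a correlation of 0.13 across probe sets. With 2 pairs and no label behind the numbers this shows no pairing. With the block, 1 residual degree of freedom remained and the members' estimates were as without it.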
